A study of Mus musculus with 24 samples.

Results

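The genes described here are 34 mouse genes of sterol and fatty acid synthesis, which are sterol regulatory element-binding proteins (SREBPs), the proteins that govern them and enzymes known as SREBP targets. They were chosen by name from the gene table, in which 34 of 55487 genes carry these names, and all 34 were among the 15401 genes with enough counts to be tested. The choice was made with earlier results of these data known, so counts of called members describe these genes and are no independent test of the pathway. Of the 34 members, 18 make sterols, 7 of them in the mevalonate arm and 11 between squalene and cholesterol, 10 make, elongate or desaturate fatty acids, and 6 regulate SREBPs or carry sterols. mRNA had been sequenced from WT and *tfeb tfe3* DKO mouse embryonic fibroblasts (MEFs), labelled Wild type and Tfeb/Tfe3 KO. Each genotype was treated with the vehicle at 0.1% DMSO, with 100 nM torin1, which inhibits MTOR at its catalytic site, or with 10 μM MK-8722, which activates AMPK directly, which gave 6 groups of 4 libraries. The duration of treatment of the sequenced cells is not given in the sources used here. Each genotype is 1 cell line, so the effect of the missing TFEB and TFE3 and other differences between the lines cannot be told apart. The libraries of a group differed in the passage of the cells, which was 7, 8, 9 or 11 in WT and 8, 9, 10 or 11 in DKO, and no source states more about how the cultures were kept apart, so p-values measure the spread between these libraries.

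SREBPs are transcription factors made as membrane proteins of the endoplasmic reticulum, where SCAP holds them and INSIG proteins retain the complex while sterols are plentiful. When sterols fall, SCAP carries the SREBP to the Golgi, proteases release its active part, and this part switches on its target genes in the nucleus. SREBF2 is best known for the genes of cholesterol synthesis and the short SREBF1 form for those of fatty acid synthesis, and both MTORC1 and AMPK are known to act on SREBP activity.

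The promoters of 5 members are shown because the genes differ in what they make and in the change of their mRNA with MK-8722. *Hmgcs1*, *Lss* and *Insig1* were called higher with MK-8722 in WT, *Fasn* and *Elovl6* were not, and all of them were called lower with torin1. The sequences are from RefSeq on GRCm38.p6 and run 5′ to 3′. They end at the first annotated transcript start, except that of *Hmgcs1*, which ends before it. Of 5 motifs searched on both strands, capitals mark those found in these windows. The windows are chr13:119690101-119690350, plus strand, for *Hmgcs1*, chr10:76531355-76531587, plus strand, for *Lss*, chr5:28071162-28071362, plus strand, for *Insig1*, chr11:120824548-120824797, minus strand, for *Fasn*, and chr3:129532136-129532354, plus strand, for *Elovl6*.
Hmgcs1: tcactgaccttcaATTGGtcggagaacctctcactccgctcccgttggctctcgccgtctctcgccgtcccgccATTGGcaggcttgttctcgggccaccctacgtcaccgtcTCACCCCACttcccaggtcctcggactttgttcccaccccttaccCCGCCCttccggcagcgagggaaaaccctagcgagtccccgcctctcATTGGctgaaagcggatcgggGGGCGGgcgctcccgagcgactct
Lss: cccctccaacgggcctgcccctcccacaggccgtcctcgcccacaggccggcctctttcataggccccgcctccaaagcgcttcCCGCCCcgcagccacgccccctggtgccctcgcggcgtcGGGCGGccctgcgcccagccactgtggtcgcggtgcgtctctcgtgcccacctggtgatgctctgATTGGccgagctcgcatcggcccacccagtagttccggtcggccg
Insig1: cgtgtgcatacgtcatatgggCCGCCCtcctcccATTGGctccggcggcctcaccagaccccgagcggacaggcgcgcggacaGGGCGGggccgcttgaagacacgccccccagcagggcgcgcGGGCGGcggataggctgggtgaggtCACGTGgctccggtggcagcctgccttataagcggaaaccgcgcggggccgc
Fasn: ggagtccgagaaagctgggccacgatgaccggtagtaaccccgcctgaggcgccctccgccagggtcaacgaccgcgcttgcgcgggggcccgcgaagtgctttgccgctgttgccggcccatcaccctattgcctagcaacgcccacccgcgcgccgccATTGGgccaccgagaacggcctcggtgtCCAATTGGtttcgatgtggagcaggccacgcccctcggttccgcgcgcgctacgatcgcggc
Elovl6: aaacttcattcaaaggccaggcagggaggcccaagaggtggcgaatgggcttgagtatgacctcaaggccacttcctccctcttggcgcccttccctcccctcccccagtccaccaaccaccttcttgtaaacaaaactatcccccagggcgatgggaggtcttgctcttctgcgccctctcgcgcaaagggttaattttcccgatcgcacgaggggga

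A promoter was found in the RefSeq table for 27 of the 34 members, and *Fdps*, *Scd2*, *Fdft1*, *Fads1*, *Stard4*, *Sqle* and *Scd1* had no entry. The search covered 250 bases upstream for every gene, which is more than is printed above for *Lss*, *Insig1* and *Elovl6*. The letters TCACNCCAC, a form of the sterol regulatory element, were found in 1 of the 27, *Hmgcs1*, starting 137 bases before its start, which is 3.7% of the members and compares with 1.22% of 27025 genes. The CCAAT box, which binds NF-Y, a known partner of SREBPs, was found in 21 of 27 members (77.8%) and in 37.5% of all genes. It was in 14 of 15 sterol genes, 3 of 7 fatty acid genes and 4 of 5 regulators. The GC box GGGCGG, to which SP1 binds, was found in 23 of 27 (85.2%, against 35.4% of all genes). The E-box CACGTG, which TFEB and SREBPs can both bind, was found in 5 of 27 (18.5%, against 6.86%), which are *Dhcr7*, *Hsd17b7*, *Insig1*, *Sc5d* and *Scap*. The CLEAR motif, which is the E-box with GT before it and AC after it and is known from lysosomal genes bound by TFEB, was found in 0 of 27, against 0.27% of all genes. Among the promoters shown, that of *Elovl6* held none of these letters and that of *Fasn* held the CCAAT box alone, whose neighbouring copies on opposite strands share letters. For these motifs, all genes means the 27025 genes of the RefSeq table, which include genes outside the 15401 tested. All 34 members were among those tested. The motif shares of tested genes alone were not computed. Whether the higher shares among members are particular to this pathway was therefore not tested. A match describes letters in this window and no binding was measured.

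Total counts per library ranged from 24668921 to 33332562 and RNA integrity numbers from 7.9 to 9.9. The value of 7.9 was that of the DKO library with MK-8722 at passage 10, and all others were at 9.7 or more. The summed level of 9 fibroblast markers lay between 6189 and 10080 CPM (counts scaled to the size of each library) over all groups. The highest medians among them were those of *Vim* (2610 CPM), *Fn1* (2222 CPM) and *Col1a1* (1700 CPM). *Thy1* reached no more than 4.51 CPM, and *Col3a1* and *Pdgfra* went down to 8.99 and 4.2 CPM. The adipocyte markers *Adipoq*, *Plin1*, *Cidec*, *Lep* and *Cfd* stayed below 0.1 CPM in every library. *Fabp4*, the other adipocyte marker, was counted in all of them, between 0.239 and 1.52 CPM. With DMSO, *Tfeb* mRNA was at 22.9 ± 1.74 CPM in WT and 2.25 ± 0.289 CPM in DKO (SD, n = 4), while *Tfe3* mRNA was at 120.2 ± 1.17 and 124 ± 2.11 CPM. The 4 leukocyte markers summed to 1.57 to 2.24 CPM in WT with DMSO and to 10.1 to 14.3 CPM with MK-8722, nearly all of it *Cd68*, with *Adgre1* at 0 in every library, and the 4 epithelial markers to at most 4.87 CPM in DKO with DMSO and to 9.88 to 14.5 CPM with torin1, mostly *Krt8*, and their part in the results was not tested. In bulk RNA, fewer cells with a transcript and less of it per cell cannot be told apart. The WT library of passage 7 with MK-8722 stood low for many members, and values without the passage 7 libraries of WT are given where a count rests on it.

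Torin1 lowered most genes of the pathway in both genotypes, in sterol as in fatty acid synthesis, whereas MK-8722 raised many sterol genes and fatty acid genes were called with it in a few alternative fits only. Calls needed a fold change of 1.2 or more and an adjusted p under 0.05 (edgeR's quasi-likelihood test, Benjamini-Hochberg over all genes tested). With torin1 in WT, 25 of the 34 members were called lower and 0 higher, where 20.5% of all genes were called lower and 47.1% in either direction. The median log2 fold change was -0.69 over the members and 0.05 over all genes. In DKO, 26 members were called lower and 1, *Srebf1*, higher with torin1 (20.2% of all genes lower, 43.2% in either direction), again with a median of -0.69. With MK-8722, 13 members were called higher and 0 lower in WT (10.3% of all genes higher, 5.87% lower, 16.1% in either direction), and 11 higher and 0 lower in DKO (5.47%, 3.21% and 8.69%). The count in DKO was 7 without either the DMSO library of passage 8 or the MK-8722 library of passage 11 (7.67% and 7.52% of all genes in either direction), and a test against a fold change of 1.2 called 5 members in WT and 2 in DKO (6.21% and 1.13% of all genes). The median with MK-8722 was 0.22 over the members in WT and 0.24 in DKO, and -0.01 and 0.00 over all genes. With MK-8722 fewer members were free of overlap than were called. In WT the 4 libraries with MK-8722 were all above the 4 with DMSO for 4 members, *Msmo1*, *Sc5d*, *Insig1* and *Insig2* (11.8% of the members, 15% of all genes), and with torin1 all below for 26 members (25.7% of all genes). In DKO the numbers were 5 with MK-8722 (11.4% of all genes) and 27 with torin1 (26.1%).

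**Figure D1:**
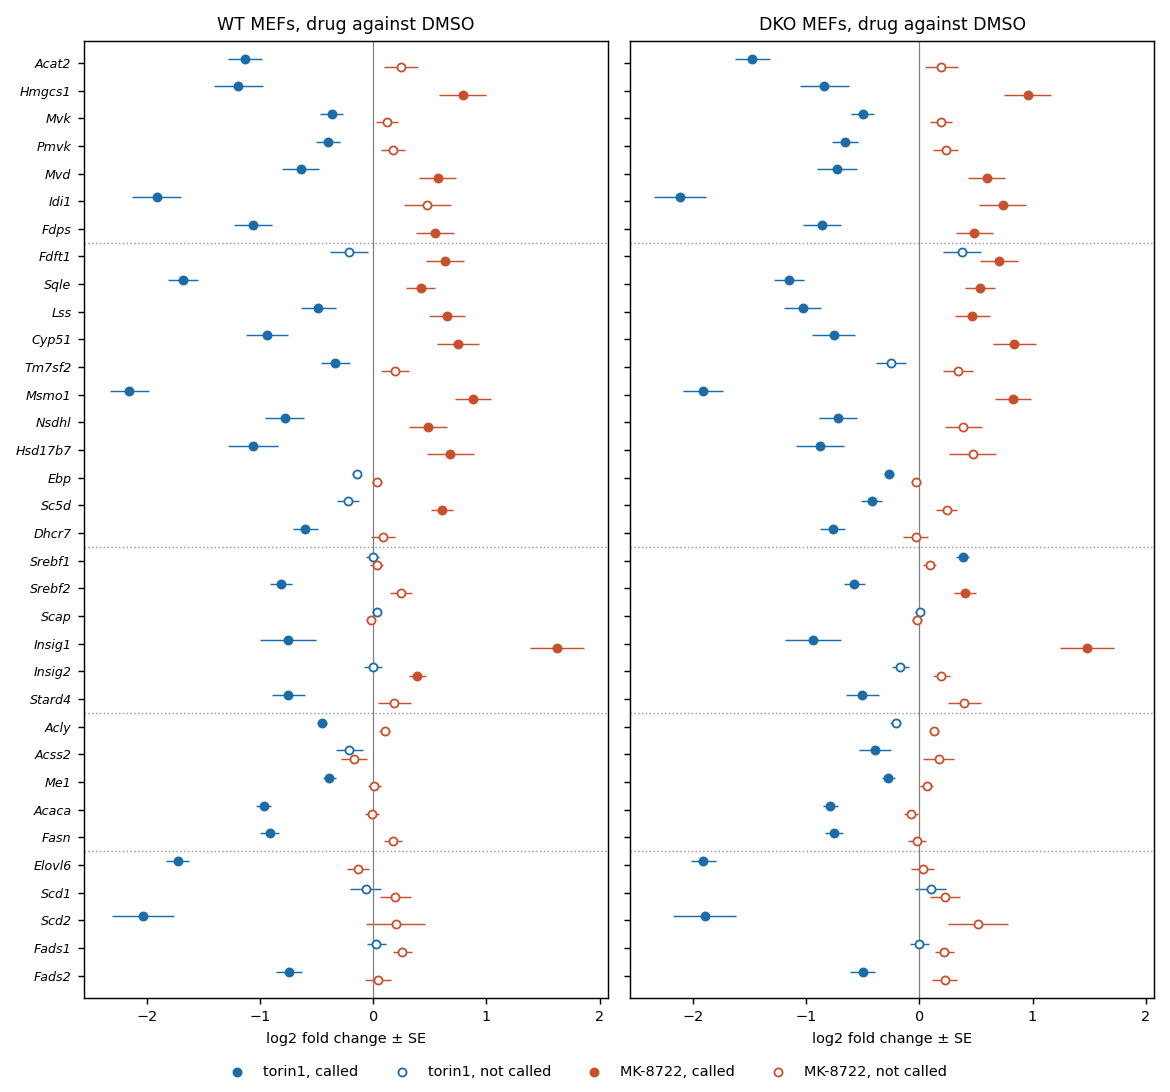
Log2 fold change with its standard error for each of the 34 members, torin1 (blue) and MK-8722 (red) against DMSO, in WT (left) and *tfeb tfe3* DKO MEFs (right), with filled points for called genes and dotted lines between the groups of roles. Torin1 points lie left of 0 for 32 members in WT and 30 in DKO, and MK-8722 points of the fatty acid genes, the lowest 2 groups, are all open.

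The mevalonate arm builds the isoprene units of sterols from acetyl-CoA. All 7 of its genes were called lower with torin1 in both genotypes (20.5% of all genes in WT, 20.2% in DKO), with a median log2 fold change of -1.06 in WT and -0.84 in DKO. With MK-8722 3 were called higher in WT and 4 in DKO (10.3% and 5.47% of all genes). *Hmgcs1* (ENSMUSG00000093930, chr13:119690379-119708260), which makes HMG-CoA, was the member of this arm with the largest rise with MK-8722. Ordered by passage, as in all lists of libraries here, it was counted in WT at 54.9, 71.6, 69.0 and 86.8 CPM with DMSO, at 30.3, 28.3, 31.3 and 33.7 CPM with torin1 and at 70.0, 120.4, 138 and 159 CPM with MK-8722. In DKO it was counted at 60.3, 70.8, 76.4 and 91.3 CPM with DMSO, at 42.7, 41.8, 38.3 and 44.3 CPM with torin1 and at 87.9, 133, 162 and 197 CPM with MK-8722. Every torin1 library was below every DMSO library of its genotype, while the youngest passage with MK-8722 overlapped the DMSO group. The log2 fold change was -1.19 (SE 0.22, adjusted p = 4.82e-05) with torin1 and 0.79 (SE 0.21, adjusted p = 0.0058) with MK-8722 in WT, and -0.84 (SE 0.21, adjusted p = 0.00179) and 0.96 (SE 0.21, adjusted p = 0.00243) in DKO. Within passages, MK-8722 raised it in 4 of 4 pairs of libraries in each genotype, by 0.35 to 1.00 in WT and by 0.54 to 1.11 in DKO on the log2 scale.

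*Idi1* (ENSMUSG00000058258, chr13:8885501-8892451), the isomerase of isopentenyl diphosphate, had the largest fall of this arm with torin1. Its WT libraries were at 42.7, 66.3, 63.3 and 70.1 CPM with DMSO, at 15.3, 16.4, 15.9 and 16.8 CPM with torin1 and at 51.2, 86.5, 95.9 and 104 CPM with MK-8722. Its DKO libraries were at 33.2, 37.8, 40.2 and 49.2 CPM with DMSO, at 9.68, 9.71, 7.80 and 9.92 CPM with torin1 and at 39.9, 61.5, 74.2 and 92.2 CPM with MK-8722. The torin1 libraries lay close together and far below the others in both lines, and the MK-8722 libraries overlapped those with DMSO. It changed with torin1 by -1.91 (SE 0.22, adjusted p = 9.36e-08) in WT and by -2.11 (SE 0.23, adjusted p = 4.7e-08) in DKO on the log2 scale. With MK-8722 it was called in DKO, at 0.74 (SE 0.21, adjusted p = 0.0143), and not in WT, at 0.48 (SE 0.21, adjusted p = 0.0827), where it was called with passage as a block in the fit (0.47, SE 0.11, adjusted p = 0.00164), and the difference between genotypes did not pass the test, at 0.26 (SE 0.29, adjusted p = 0.751). *Fdps*, which makes farnesyl diphosphate, and *Mvd*, the decarboxylase, were called in all 4 comparisons of drug and DMSO. *Fdps* was at -1.06 ± 0.17 with torin1 and 0.55 ± 0.16 with MK-8722 in WT (log2 fold change ± SE), and *Mvd* at -0.64 ± 0.16 and 0.57 ± 0.16. *Acat2*, the thiolase, and the kinases *Mvk* and *Pmvk* were called with torin1 only, at -1.13 ± 0.15, -0.37 ± 0.10 and -0.40 ± 0.11 in WT. Of the 52-base stretches of *Acat2* transcripts, 38.7% also occur in transcripts of another gene, mostly *Acat3*, as do 26% for *Fdps* and 17.6% for *Idi1*, so their counts depend on how reads were divided.

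The 11 genes from squalene to cholesterol include the largest fall with torin1 among all members. In WT, 8 were called lower with torin1 and 8 higher with MK-8722 (20.5% and 10.3% of all genes), and in DKO 9 and 5 (20.2% and 5.47%). *Msmo1* (ENSMUSG00000031604, chr8:64718139-64733792), a monooxygenase that removes methyl groups from sterols, was at 49.1, 66.4, 70.8 and 75.4 CPM with DMSO, at 16.3, 13.9, 12.4 and 16.1 CPM with torin1 and at 81.0, 123, 138 and 139 CPM with MK-8722 in WT. In DKO it was at 46.3, 47.1, 52.5 and 56.5 CPM with DMSO, at 15.9, 12.8, 13.2 and 11.98 CPM with torin1 and at 65.4, 85.8, 96.4 and 112 CPM with MK-8722. The 3 treatments did not overlap in either genotype, with torin1 lowest and MK-8722 highest. Its log2 fold change in WT was -2.15 (SE 0.17, adjusted p = 3.34e-10) with torin1 and 0.88 (SE 0.16, adjusted p = 0.000208) with MK-8722, and in DKO -1.91 (SE 0.17, adjusted p = 3.11e-09) and 0.83 (SE 0.16, adjusted p = 0.000948). *Cyp51* (ENSMUSG00000001467, chr5:4081145-4104746), the demethylase of lanosterol, was at 40.6, 57.1, 55.0 and 73.8 CPM with DMSO, at 26.1, 28.0, 30.3 and 33.8 CPM with torin1 and at 58.3, 94.5, 107 and 121 CPM with MK-8722 in WT and, in DKO, at 53.0, 55.1, 57.1 and 64.2 CPM with DMSO, at 35.3, 29.7, 33.6 and 37.3 CPM with torin1 and at 75.0, 93.2, 112 and 130.3 CPM with MK-8722. Its DKO groups did not overlap, whereas in WT the passage 7 library with MK-8722 was within the DMSO range. It changed by 0.75 (SE 0.19, adjusted p = 0.00327) with MK-8722 in WT and by 0.84 (SE 0.19, adjusted p = 0.00255) in DKO, and by -0.94 (SE 0.19, adjusted p = 0.000173) and -0.76 (SE 0.19, adjusted p = 0.00157) with torin1.

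*Sqle*, the epoxidase of squalene, fell by 1.68 with torin1 in WT and by 1.15 in DKO on the log2 scale, and rose with MK-8722 by 0.42 and 0.54. *Lss*, which closes the rings to lanosterol, was called in the same directions in all 4 comparisons, with log2 fold changes of -0.48 ± 0.16 and -1.03 ± 0.16 with torin1 and 0.65 ± 0.16 and 0.47 ± 0.16 with MK-8722 in WT and DKO. *Nsdhl* and *Hsd17b7*, enzymes of sterol demethylation, were called higher with MK-8722 in WT (0.48 ± 0.17 and 0.68 ± 0.21) and in DKO (0.39 ± 0.16 and 0.47 ± 0.20) with passage as a block alone (0.38 ± 0.08 and 0.46 ± 0.13). *Fdft1*, squalene synthase, was called with MK-8722, at 0.64 ± 0.17 in WT and 0.71 ± 0.17 in DKO, and was at -0.21 ± 0.17 and 0.37 ± 0.17 with torin1, the latter called higher with passage as a block (0.39 ± 0.10). With torin1 it was lower in 3 of 4 passages of WT and higher in 4 of 4 of DKO. Of its 52-base stretches, 8.95% occur in transcripts of other genes on the same strand. When strand is ignored the share is 26.1%, mostly with *Ctsb* on the opposite strand. Of the stretches of *Tm7sf2*, 9.78% occur in *Vps51*. The part of shared stretches in these changes was not tested. *Sc5d*, a sterol desaturase, was called higher with MK-8722 in WT (0.61 ± 0.09) and lower with torin1 in DKO (-0.42 ± 0.09). *Dhcr7*, the final reductase, fell with torin1 (-0.60 ± 0.11 in WT, -0.77 ± 0.11 in DKO) and was at 0.09 ± 0.11 and -0.03 ± 0.11 with MK-8722, *Ebp*, an isomerase, was at -0.15 ± 0.04 with torin1 in WT and called at -0.27 ± 0.04 in DKO, and *Tm7sf2*, a reductase, was called with torin1 in WT (-0.33 ± 0.13) and, with passage as a block alone, with MK-8722 in DKO (0.35 ± 0.09). Some of these calls rest on the settings or on single libraries. Beside a test against a fold change of 1.2, other fits ended those of *Nsdhl*, *Sqle*, *Hsd17b7* and *Fdps* with MK-8722 in WT, of *Lss*, *Fdps*, *Idi1* and *Mvd* with MK-8722 in DKO, of *Lss* and *Tm7sf2* with torin1 in WT and of *Ebp* with torin1 in DKO.

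The regulators did not move together. *Insig1* (ENSMUSG00000045294, chr5:28071363-28078662), which holds the SCAP and SREBP complex back and is itself an SREBP target, had the largest rise of all members with MK-8722. In WT it was counted at 15.9, 25.4, 21.7 and 30.1 CPM with DMSO, at 14.7, 13.8, 13.7 and 13.1 CPM with torin1 and at 38.0, 75.0, 81.5 and 92.5 CPM with MK-8722, and in DKO at 25.4, 32.5, 33.9 and 41.0 CPM with DMSO, at 18.5, 18.1, 17.9 and 14.8 CPM with torin1 and at 54.0, 87.3, 108 and 122 CPM with MK-8722. All libraries with MK-8722 were above all those with DMSO, and all with torin1 below, although the passage 7 libraries of WT with DMSO and torin1 were close. The log2 fold change with MK-8722 was 1.63 (SE 0.24, adjusted p = 1.64e-05) in WT and 1.48 (SE 0.24, adjusted p = 0.000147) in DKO, a fold of 3.09 and 2.80. With torin1 it was -0.75 (SE 0.25, adjusted p = 0.0119) in WT, a call that was lost with limma's voom (adjusted p = 0.0733), without the passage 11 libraries of WT (adjusted p = 0.075, edgeR) and without the passage 11 library with DMSO alone (adjusted p = 0.0547, edgeR), and -0.94 (SE 0.25, adjusted p = 0.00221) in DKO. *Srebf2* (ENSMUSG00000022463, chr15:82147181-82205379) was counted in WT at 365, 446, 436 and 454 CPM with DMSO, at 224, 253, 247 and 243 CPM with torin1 and at 413, 540.5, 546 and 518 CPM with MK-8722, and in DKO at 219.3, 238, 249.8 and 296 CPM with DMSO, at 161, 172, 165 and 176 CPM with torin1 and at 289, 314, 338 and 384 CPM with MK-8722. Torin1 libraries lay below all DMSO libraries in both genotypes, and MK-8722 libraries overlapped them. It fell with torin1 by 0.81 (SE 0.10, adjusted p = 1.51e-07) in WT and by 0.57 (SE 0.10, adjusted p = 2.07e-05) in DKO on the log2 scale. With MK-8722 it rose in DKO by 0.40 (SE 0.10, adjusted p = 0.00439) and was not called in WT, at 0.25 (SE 0.10, adjusted p = 0.0543).

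*Srebf1* (ENSMUSG00000020538, chr11:60199089-60222581) was at 133, 151, 145 and 155 CPM with DMSO, at 138, 149.6, 149 and 145 CPM with torin1 and at 135, 160.0, 155 and 145 CPM with MK-8722 in WT, where the 3 groups overlapped. In DKO it was at 97.7, 107, 106 and 114 CPM with DMSO, at 138, 142, 136 and 139 CPM with torin1 and at 105, 113, 111 and 124 CPM with MK-8722, and there the torin1 libraries were above all others. The log2 fold change with torin1 was 0.00 (SE 0.06, adjusted p = 0.968) in WT and 0.39 (SE 0.06, adjusted p = 5.02e-06) in DKO. *Scap* was called with neither drug, at 0.03 ± 0.04 and -0.02 ± 0.04 in WT. *Insig2* rose with MK-8722 in WT (0.39 ± 0.08) and was at 0.20 ± 0.08 in DKO, and *Stard4*, a carrier of cholesterol in the cytosol, fell with torin1 (-0.75 ± 0.15 in WT, -0.50 ± 0.15 in DKO) and was at 0.19 ± 0.14 and 0.40 ± 0.14 with MK-8722, the latter called with passage as a block (0.39 ± 0.10).

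**Figure D2:**
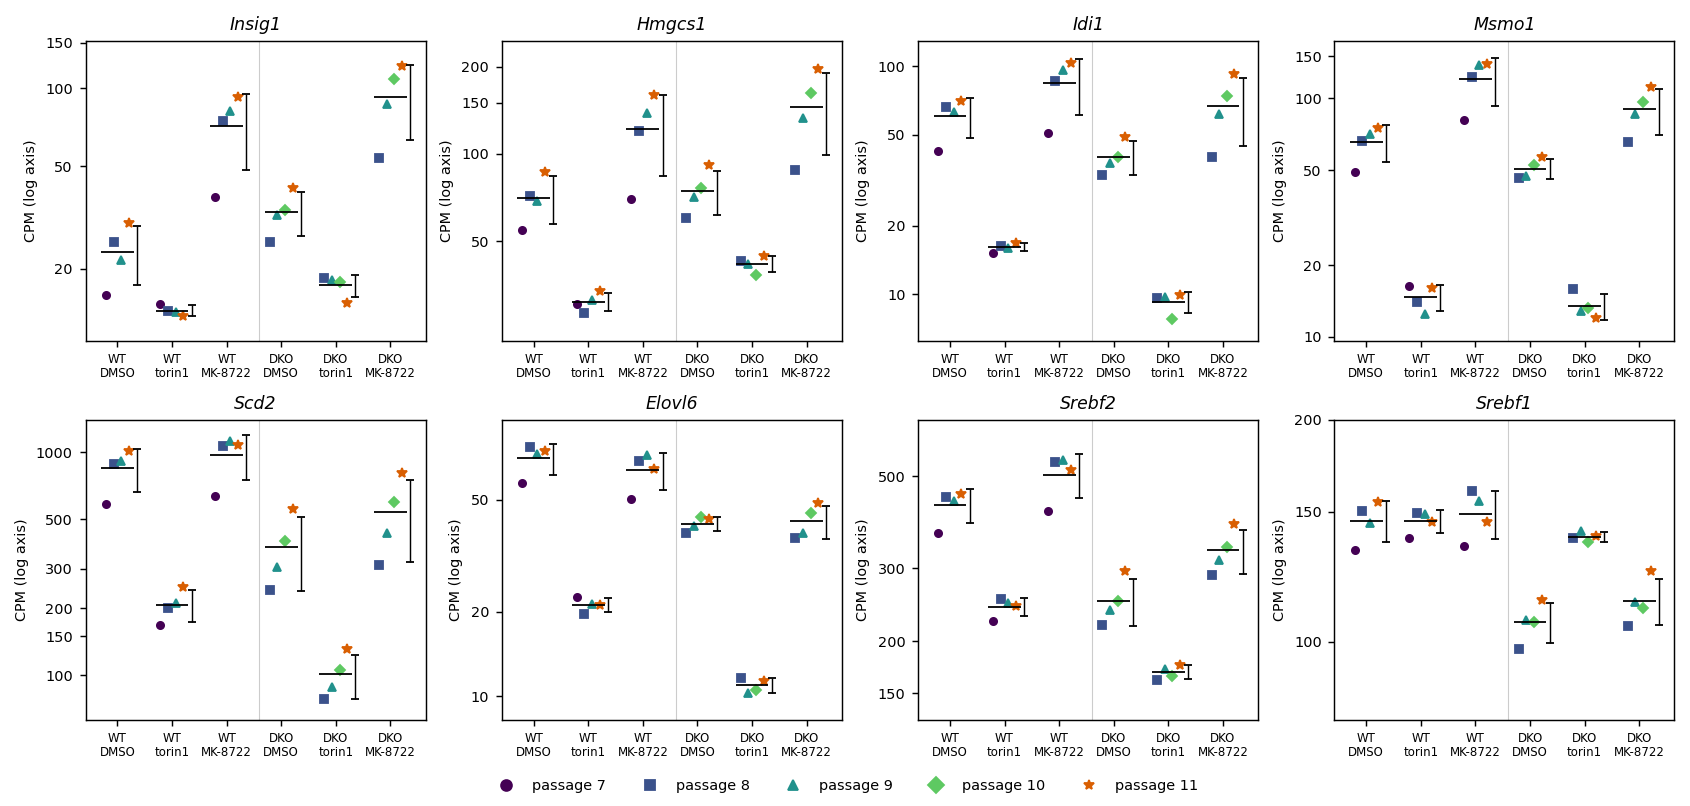
Level in CPM, on log axes, of 8 members in each library of the 6 groups, with symbols for passages, a line at the mean and a bar for ± SD (n = 4). Torin1 libraries sit below the DMSO libraries of their genotype for all genes shown but *Srebf1*, and within most groups the youngest passage is lowest.

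Of the 5 genes that supply acetyl-CoA and NADPH and build palmitate, 4 were called lower with torin1 in each genotype (20.5% of all genes in WT, 20.2% in DKO). *Acaca* (ENSMUSG00000020532, chr11:84129672-84401651), acetyl-CoA carboxylase, whose protein AMPK is known to phosphorylate, fell most. It was at 204, 215, 213 and 232 CPM with DMSO, at 106, 108, 108 and 119 CPM with torin1 and at 192, 213, 217 and 233 CPM with MK-8722 in WT and, in DKO, at 172, 170.2, 181 and 194 CPM with DMSO, at 111, 98.9, 99.4 and 107 CPM with torin1 and at 157, 164, 171 and 189 CPM with MK-8722. The torin1 libraries were all below the others, and the MK-8722 and DMSO libraries had nearly the same range in WT. Its log2 fold change with torin1 was -0.97 (SE 0.06, adjusted p = 1.19e-11) in WT and -0.79 (SE 0.06, adjusted p = 4.01e-10) in DKO, and with MK-8722 -0.01 (SE 0.06, adjusted p = 0.898) and -0.08 (SE 0.06, adjusted p = 0.45). Of its 52-base stretches, 30.1% are shared with other genes, mostly *Gm5182*, as are 22.3% of those of *Me1*, mostly with *Gm7049*. *Fasn*, fatty acid synthase, fell with torin1 (-0.92 ± 0.08 in WT, -0.76 ± 0.08 in DKO) and was at 0.17 ± 0.08 and -0.02 ± 0.08 with MK-8722. *Acly*, which makes cytosolic acetyl-CoA from citrate, fell in WT (-0.45 ± 0.05) and was under the fold threshold in DKO (-0.21 ± 0.05), while *Acss2*, which makes it from acetate, was called in DKO (-0.39 ± 0.14) and not in WT (-0.21 ± 0.12). *Me1*, malic enzyme, a source of NADPH, fell in both (-0.39 ± 0.06 and -0.28 ± 0.06), and the DKO calls of *Acss2* and *Me1* ended under at least 1 alternative fit.

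Of the 5 genes of elongation and desaturation, 3 were called lower with torin1 in each genotype (20.5% of all genes in WT, 20.2% in DKO). *Scd2* (ENSMUSG00000025203, chr19:44293674-44306864), a stearoyl-CoA desaturase, was counted in WT at 585, 883, 916 and 1011 CPM with DMSO, at 168, 200.3, 210.3 and 249 CPM with torin1 and at 638, 1064, 1116 and 1073 CPM with MK-8722, and in DKO at 240.3, 307, 402 and 557 CPM with DMSO, at 78.7, 89.0, 105 and 131 CPM with torin1 and at 313, 433, 597 and 809 CPM with MK-8722. The torin1 libraries were far below the rest, and the DMSO and MK-8722 libraries of DKO overlapped over a wide range, with passage 8 lowest and passage 11 highest. Its log2 fold change was -2.03 (SE 0.27, adjusted p = 1.06e-06) with torin1 and 0.20 (SE 0.26, adjusted p = 0.632) with MK-8722 in WT, and -1.90 (SE 0.27, adjusted p = 3e-06) and 0.52 (SE 0.27, adjusted p = 0.184) in DKO. With passage as a block, the change with MK-8722 in DKO was called, at 0.50 (SE 0.07, adjusted p = 2.46e-05, edgeR), and the MK-8722 library was above the DMSO library of its passage by 0.38 to 0.57 at 4 of 4 passages. *Elovl6* (ENSMUSG00000041220, chr3:129532355-129638495), which elongates palmitate, was at 57.1, 76.8, 72.7 and 74.1 CPM with DMSO, at 22.6, 19.6, 21.4 and 21.1 CPM with torin1 and at 50.3, 68.6, 72.2 and 64.2 CPM with MK-8722 in WT and, in DKO, at 38.1, 40.2, 43.4 and 42.7 CPM with DMSO, at 11.6, 10.3, 10.5 and 11.3 CPM with torin1 and at 36.4, 38.2, 44.7 and 48.4 CPM with MK-8722. Every torin1 library was below every DMSO library, and the MK-8722 libraries overlapped the DMSO range. The log2 fold change was -1.73 (SE 0.11, adjusted p = 3.49e-12) with torin1 in WT and -1.91 (SE 0.11, adjusted p = 2.06e-12) in DKO, and -0.14 (SE 0.10, adjusted p = 0.342) and 0.03 (SE 0.10, adjusted p = 0.887) with MK-8722. *Fads2*, a desaturase of polyunsaturated fatty acids, fell with torin1 (-0.74 ± 0.11 in WT, -0.50 ± 0.11 in DKO). Its neighbour in the pathway *Fads1* was at 0.03 ± 0.08 and 0.00 ± 0.08, and *Scd1*, a paralog of *Scd2*, at -0.07 ± 0.13 and 0.10 ± 0.14, and with MK-8722 they were at 0.26 ± 0.08 and 0.19 ± 0.13 in WT.

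Torin1 lowered genes of both classes, whereas with MK-8722 calls were made among sterol genes and regulators and, in some fits, for *Scd2* or *Fads1*. With torin1, 15 of 18 sterol genes and 7 of 10 fatty acid genes were called lower in WT, with medians of -0.71 and -0.60, and 16 and 7 in DKO, with medians of -0.76 and -0.45. With MK-8722, 11 of 18 sterol genes were called higher in WT (median 0.51) and 9 in DKO (median 0.47). Among all genes, 20.5% in WT and 20.2% in DKO were called lower with torin1, and 10.3% and 5.47% higher with MK-8722. Of the 10 fatty acid genes, 0 were called with MK-8722 in either genotype when all 24 libraries were fitted without passage, by edgeR with TMM scaling, by the Wald test of DESeq2 or by limma with voom weights (medians 0.07 and 0.15), and 3 in WT (*Acly*, *Fads1* and *Fasn*) and 2 in DKO (*Acly* and *Fads1*) had an unadjusted p under 0.05. *Fads1* in WT, at 0.26 (SE 0.08, adjusted p = 0.0223), passed the adjusted p and missed the fold of 1.2, and it was called when scaled by library size alone, with only the groups compared and without the passage 7 libraries of WT (0.27 in each). With passage as a block, *Scd2* was called higher in DKO, and without the DMSO library of passage 11 in DKO both *Scd2* (adjusted p = 0.0499, edgeR) and *Fads1* (adjusted p = 0.0267, edgeR) were. The mean log2 CPM over each class was taken in every library and set relative to the mean of WT with DMSO. With MK-8722 the sterol mean was 0.45 ± 0.31 (SD, n = 4) and the fatty acid mean 0.06 ± 0.17 in WT, and with torin1 they were -0.84 ± 0.05 and -0.74 ± 0.06. In DKO the sterol mean went from -0.11 ± 0.16 with DMSO to 0.32 ± 0.30 with MK-8722 and -0.94 ± 0.06 with torin1, and the fatty acid mean from -0.60 ± 0.14 to -0.46 ± 0.18 and -1.25 ± 0.06. The difference of the class means, sterol minus fatty acid, was between 0.18 and 0.49 in the WT libraries with MK-8722 and between -0.09 and 0.08 in those with DMSO, so they did not overlap, and neither did the DKO libraries with MK-8722, from 0.60 to 0.88, and DMSO, from 0.44 to 0.51. With torin1 the difference changed by -0.10 in WT and -0.17 in DKO, and by -0.15 and -0.36 where medians over the genes took the place of means. No test was made on these means, since the genes were chosen with results known.

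**Figure D3:**
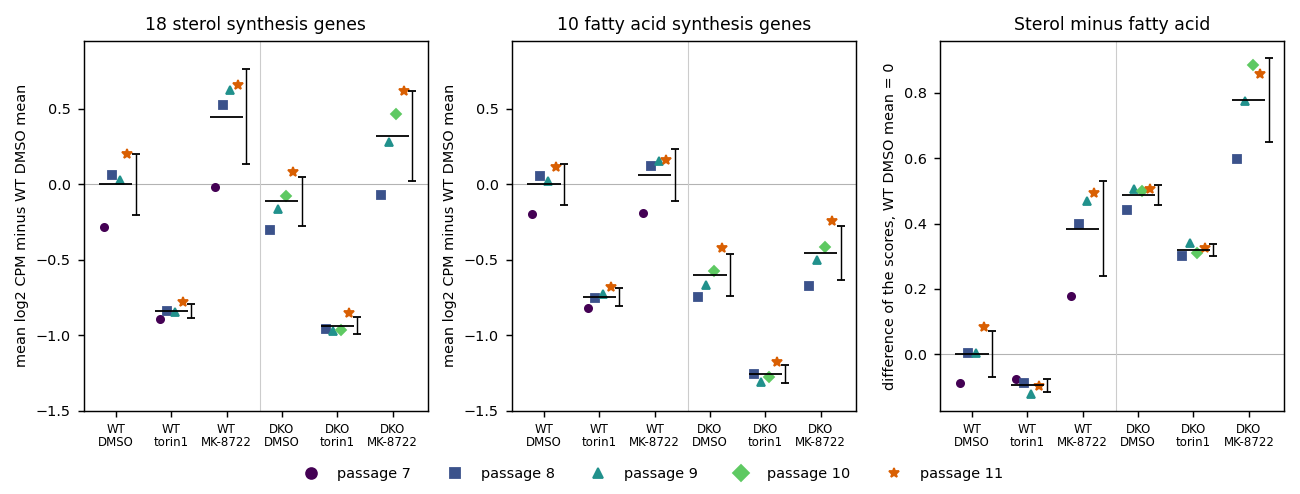
Mean log2 CPM of the sterol genes (left) and fatty acid genes (middle) and their difference (right) in each library, relative to the mean of WT with DMSO, with symbols for passages, a line at the group mean and a bar for ± SD (n = 4). The difference lies higher with MK-8722 than with DMSO in each genotype, and both class means are lowest with torin1.

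The same was seen within passages, where each drug library was set against the DMSO library of the same line and passage. With MK-8722 the sterol mean was higher by 0.27, 0.46, 0.60 and 0.46 at passages 7, 8, 9 and 11 of WT, and the fatty acid mean by 0.00, 0.07, 0.13 and 0.05. In DKO the sterol mean was higher by 0.23, 0.44, 0.54 and 0.53 at passages 8, 9, 10 and 11, and the fatty acid mean by 0.07, 0.17, 0.16 and 0.18. The sterol change was the larger at all passages, with 15 to 18 of the 18 genes above DMSO in each, where 47.8% to 50.5% of all genes were above. Of the 10 fatty acid genes, 5 to 8 were above DMSO at a passage of WT and 6 to 9 at one of DKO. *Acly*, *Fads1*, *Scd1* and *Scd2* were above it at 4 of 4 passages in both genotypes. *Acss2* and *Elovl6* in WT and *Acaca* in DKO were below it at 4 of 4. With torin1 the sterol mean changed by -0.61 to -0.98 and the fatty acid mean by -0.63 to -0.81 over the passages of WT, and by -0.66 to -0.94 and -0.51 to -0.75 over those of DKO. The smallest change with either drug was at the youngest passage in each line.

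The level of sterol genes moved with passage as well, and so did that of most fatty acid genes with DMSO and MK-8722. With DMSO, 16 of 18 sterol genes were lowest at passage 7 in WT and 16 of 18 at passage 8 in DKO, where 28.2% and 28.1% of all genes were lowest. With MK-8722 the numbers were 18 and 17 (28.3% and 32.4% of all genes). With torin1 they were 8 and 6 (44.4% and 33.3%, beside 29.1% and 28% of all genes). The median range of a sterol gene over the 4 libraries was 0.54 with DMSO and 0.73 with MK-8722 in WT and 0.45 and 0.75 in DKO on the log2 scale, but 0.21 and 0.30 with torin1, beside 0.22 to 0.25 for all genes in the 6 groups. Of the 10 fatty acid genes, 9 were lowest at passage 7 in WT with DMSO, with a median range of 0.30, and 7 at passage 8 in DKO. With MK-8722 these counts were 10 and 9, and with torin1 6 and 3. Each passage has 1 library per group, so passage and anything else that set these libraries apart cannot be told apart. With passage as a block in the fit, 14 members were called with MK-8722 in WT (18.9% of all genes) and 16 in DKO (11.7%), and without the passage 7 libraries 15 in WT (16%). The members added by the block were *Idi1* in WT and *Nsdhl*, *Hsd17b7*, *Tm7sf2*, *Stard4* and *Scd2* in DKO.

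Set directly against each other, the drugs differed in most members. With torin1, 28 of 34 members were called lower than with MK-8722 in WT and 0 higher (20% of all genes lower, 44.9% in either direction), and 28 lower and 1 higher in DKO (19.3% and 40.4%). The median log2 difference was -0.95 in WT and -0.81 in DKO, and the torin1 libraries were all below those with MK-8722 for 29 members in WT (25.6% of all genes) and 30 in DKO (25.2%). Among sterol genes, 17 of 18 were lower in WT (median -1.24) and 16 in DKO (median -1.33), and among fatty acid genes 7 of 10 (median -0.67) and 8 (median -0.64). *Msmo1*, with the largest difference in WT, was at -3.03 (SE 0.18, adjusted p = 3.06e-12) there and at -2.74 (SE 0.18, adjusted p = 1.58e-11) in DKO, where the 4 torin1 libraries were below the 4 MK-8722 libraries. *Idi1*, with the largest difference in DKO, differed by -2.39 ± 0.22 and -2.85 ± 0.23, *Insig1* by -2.38 ± 0.25 and -2.43 ± 0.25, and *Scd2* by -2.23 ± 0.28 and -2.41 ± 0.28 (log2 difference ± SE, WT and DKO). The exceptions were *Ebp*, *Scap*, *Fads1* and *Scd1*, called in neither genotype, *Srebf1*, which was higher with torin1 in DKO (0.29 ± 0.06), *Acss2*, called in DKO alone (-0.56 ± 0.14), and *Fdft1*, called in WT (-0.85 ± 0.17) and, with passage as a block alone, in DKO (-0.31 ± 0.10).

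Between the lines, fatty acid genes were mostly lower in DKO, while sterol genes were called at shares near those of all genes. With DMSO, 17 of 34 members were called lower in DKO than in WT and 6 higher, where 24.6% and 23.5% of all genes were called and 48.2% in either direction. Of the 10 fatty acid genes, 9 were lower, with a median log2 fold change of -0.54, and of the 18 sterol genes 6 were lower (33.3%) and 4 higher (22.2%). *Acss2* differed most, by -1.45 (SE 0.13, adjusted p = 1.08e-09). *Scd2* was at -1.17 (SE 0.27, adjusted p = 0.000578) and *Elovl6* at -0.77 (SE 0.10, adjusted p = 6.67e-07). *Srebf2* was lower by 0.76 ± 0.10 and *Srebf1* by 0.46 ± 0.06 on the log2 scale in DKO, without overlap of the libraries. The sterol genes that were higher in DKO were *Ebp* (0.83 ± 0.04), *Sc5d* (0.50 ± 0.09), *Nsdhl* (0.46 ± 0.17) and *Mvk* (0.33 ± 0.10), and among those lower were *Mvd* (-0.76 ± 0.16), *Tm7sf2* (-0.65 ± 0.13) and *Pmvk* (-0.59 ± 0.11). *Scap* and *Insig2* were also higher. With torin1, 13 members were lower and 6 higher in DKO (27.8% and 24%, 51.8% in either direction), a split that became 15 and 3 when scaled by library size alone, which moved the median of all genes by -0.13. With MK-8722, 17 were lower and 4 higher (25.4% and 23.3%, 48.7% in either direction). In a test against a fold change of 1.2, 15 members were called with DMSO (36.7% of all genes).

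The response to a drug was compared between genotypes as its log2 fold change in DKO minus that in WT. For torin1, 1 of 34 members was called, where 11% of all genes were (4.68% higher, 6.33% lower), and for MK-8722 0 of 34 by edgeR, by DESeq2 and by limma with voom weights, where 5.49% of all genes were (1.42% higher, 4.08% lower), with 1 member, *Sc5d*, at an unadjusted p under 0.05. The member called was *Srebf1*, whose response to torin1 was higher in DKO by 0.39 (SE 0.08, adjusted p = 0.00213). Within passages torin1 changed it by -0.09 to 0.05 in WT, with 2 of 4 above 0, and by 0.29 to 0.50 in DKO, with 4 of 4 above 0. In a test against a fold change of 1.2 it was not called (2.95% of all genes were). The count depended on the fit. With passage as a block, 5 were called (15.4% of all genes), *Srebf1*, *Sqle* and *Fdft1* higher and *Lss* and *Acat2* lower, and without the passage 7 libraries of WT 4 were called, all higher (11.9%). For MK-8722, *Sc5d* was called lower with passage as a block (9.04% of all genes) and without passage 7 (5.13%). In the fit without the block, *Fdft1* was at 0.59 (SE 0.24, adjusted p = 0.105), *Sqle* at 0.53 (SE 0.19, adjusted p = 0.0583) and *Lss* at -0.55 (SE 0.23, adjusted p = 0.11) for torin1. A difference that did not pass the test leaves a range of sizes possible, since the median standard error of the response to torin1 over the members was 0.18.

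**Figure D4:**
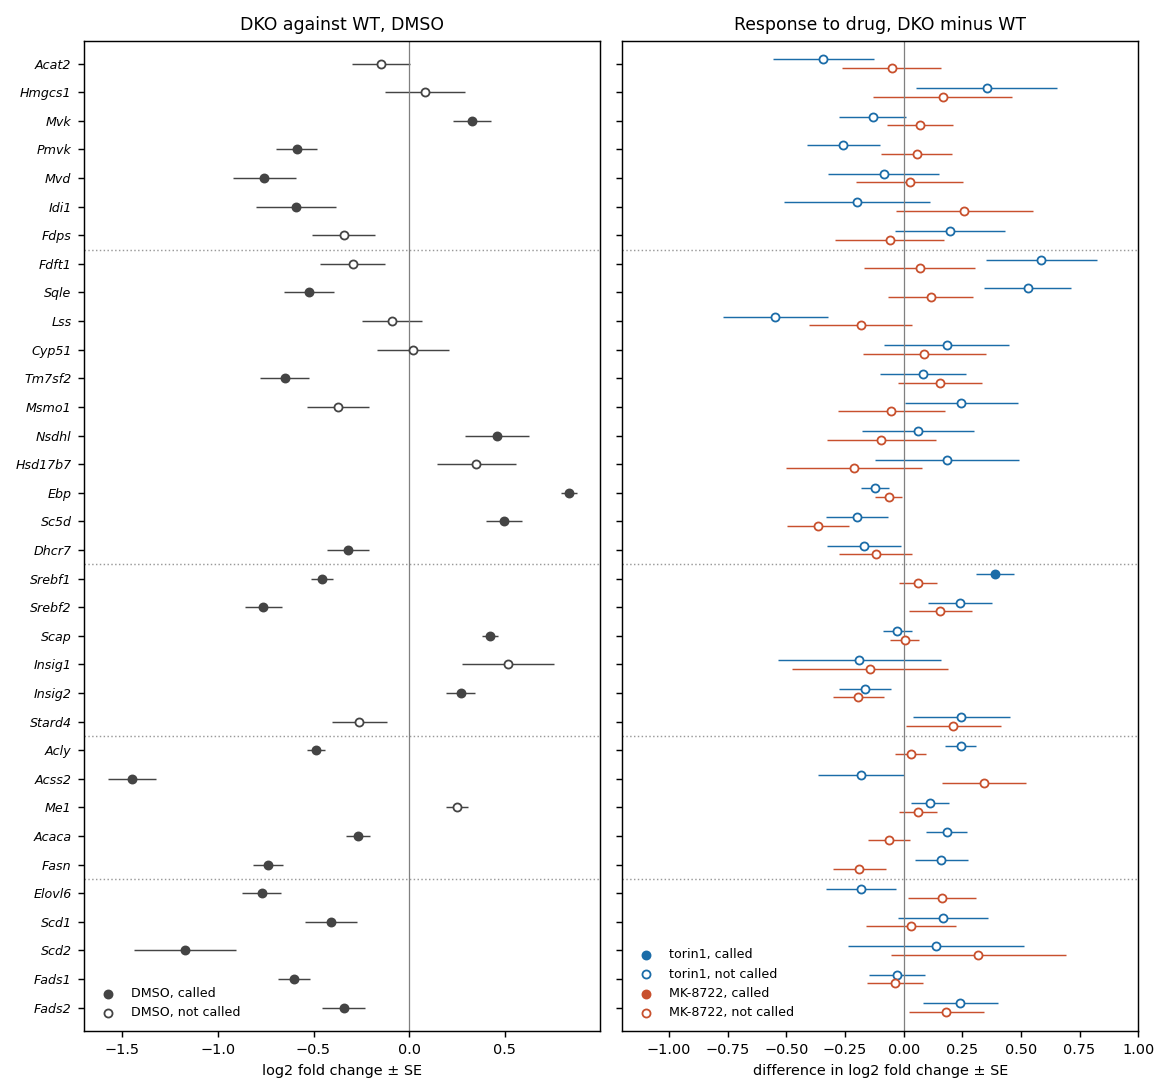
Log2 fold change with its standard error of *tfeb tfe3* DKO against WT with DMSO (left) and the difference in response to torin1 (blue) and MK-8722 (red) between DKO and WT (right) for the 34 members, with filled points for called genes. On the left 9 of the 10 fatty acid genes, the lowest 2 groups, are filled and left of 0, and on the right *Srebf1* with torin1 is the one filled point.

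Other genes around the pathway, from lists that are not complete, are set beside all genes tested, of which 26.6% were called higher and 20.5% lower with torin1 in WT, 23% and 20.2% in DKO, and 10.3% and 5.87% with MK-8722 in WT. The counts for cleavage genes are near or under those shares, as is the count of LXR and transport genes that fell with torin1. The same holds in WT for further fatty acid genes that rose with torin1 (23.8%) or fell with MK-8722 (4.76%). It also holds for glycerolipid genes that rose with torin1 in WT (7.14%) and isoprenoid genes that rose with it in DKO (11.1%). Of 9 genes that cut SREBPs or turn over their partners, torin1 in WT lowered 1, *Rnf145*, and raised 1, *Erlin2*, and MK-8722 raised 1, *Mbtps2*, a protease of SREBPs. *Rnf145*, a ubiquitin ligase of the endoplasmic reticulum, fell by 1.15 ± 0.05 with torin1 in WT and by 1.29 ± 0.05 in DKO on the log2 scale. Of 9 genes of the isoprenoid branches, 5 fell with torin1 in WT and 5 fell and 1, *Coq2*, rose in DKO, among them *Pdss1* (-0.58 ± 0.08 in WT) and *Pdss2* (-0.54 ± 0.06), which make the tail of ubiquinone, and *Ggps1* (-0.50 ± 0.05), and 1, *Pdss1*, fell with MK-8722. Of 15 genes of LXR, sterol storage and transport, 6 rose and 3 fell with torin1 in WT and 5 rose with MK-8722 (*Nr1h2*, *Abca1*, *Abcg1*, *Soat1* and *Gramd1a*). *Abca1*, which exports cholesterol, rose by 1.68 ± 0.24 with torin1 and 0.86 ± 0.24 with MK-8722 in WT, *Abcg1* by 0.76 ± 0.14 and 0.59 ± 0.14, and *Tmem97* fell with torin1 by 1.45 ± 0.06 and was at 0.09 ± 0.05 with MK-8722. Of 21 further genes of fatty acid synthesis, elongation and activation that were tested of 26 listed, 11 fell and 5 rose with torin1 in WT and 4 rose (*Elovl4*, *Hsd17b12*, *Hacd1* and *Acsl3*) and 1, *Acsl6*, fell with MK-8722. *Scd4* fell with torin1 (-2.59 ± 0.48), as did *Mid1ip1*, an activator of acetyl-CoA carboxylase (-1.41 ± 0.07), while *Acacb*, the carboxylase of mitochondria, rose (1.75 ± 0.23). Of 14 genes of glycerolipid synthesis, 6 fell and 1, *Dgat1*, rose with torin1 in WT, with *Chka* at -0.75 ± 0.16, *Pcyt2* at -0.60 ± 0.09 and *Gpat3* at -0.54 ± 0.10. With MK-8722 in WT, 4 of these rose and 2, *Gpat3* and *Dgat2*, fell. The genes that rose were *Pcyt2* (0.38 ± 0.09) and the lipins *Lpin1* (0.75 ± 0.22 in WT, 1.02 ± 0.23 in DKO), *Lpin2* (0.42 ± 0.06) and *Lpin3* (0.45 ± 0.12), phosphatases that make diacylglycerol, and like the other genes named by their small count they were picked after their values were seen.

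Per length, in TPM (transcripts scaled for length and library size), *Scd2* was the most abundant member in WT with DMSO, at 305 ± 64.0 (SD, n = 4), with a range of 213 to 360.4 that overlapped that of *Srebf2* (209 ± 14.4). *Fdps* followed at 196 ± 37.4 and *Acly* at 178 ± 7.80 TPM. *Fasn* was at 166 ± 12.4, *Fads1* at 137 ± 11.6, *Scd1* at 121 ± 16.8, *Fads2* at 108 ± 14.98 and *Srebf1* at 86.5 ± 5.35 TPM. Sterol genes other than *Fdps* lay lower, from *Msmo1* (70.2 ± 13.1) and *Acat2* (61.5 ± 9.13) to *Tm7sf2* (11.3 ± 0.88) and *Hsd17b7* (5.79 ± 1.48), and 31 of 33 neighbours in the order of all members had overlapping ranges. The lowest of all was *Acss2*, at 4.81 ± 0.43 TPM, and *Insig1*, which rose most with MK-8722, was at 14.7 ± 3.86.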

How the data were processed

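RNA of 24 libraries had been read as pairs of 52 bp. The authors ran nf-core/rnaseq with STAR and salmon on GRCm38 with Ensembl release 102 and unique molecular identifiers. They deposited estimated counts, which are not scaled for library size or length, and TPM. The batch they removed with limma is not given in the sources used here and was not removed. Estimated counts were rounded to whole numbers. Genes passing filterByExpr (minimum count 10; 15401 of 55487) were fitted with edgeR 4.0.16 (TMM, quasi-likelihood, R 4.3.3), 1 mean per group, which left 18 residual degrees of freedom and gave a biological coefficient of variation of 10.7%. P-values were adjusted by Benjamini-Hochberg over all genes tested. CPM were computed on TMM-scaled library sizes, class means from log2 CPM with a prior count of 2, and TPM entered no test. limma 3.58.1 and DESeq2 1.42.0 served as alternatives. No replicate pair agreed within sampling noise (lowest chi-square per degree of freedom 3.8). The 34 members and all lists were chosen with earlier results of these data known. Library values are given for *Srebf1*, *Srebf2*, *Insig1* and, per group of roles and per comparison of a drug with DMSO, the called member with the largest fold change. From each of the other lists, up to 3 called genes with the largest change with torin1 in WT were named by rule. Further genes of these lists, among them those named for MK-8722, were named after their values were seen. In data simulated for torin1 against DMSO in WT, 200 genes were changed, of which 191 passed the filter, and 133 of these and 4 of 14776 unchanged ones were called among 14967 tested. The simulated libraries were independent, and the unchanged genes had equal means in all groups. In the data 47.1% of genes were called in this comparison and libraries of a passage tended to vary together. These rates therefore do not carry over to the data. Promoters are RefSeq's, and gene positions are from GENCODE M21 on GRCm38.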

Additional observations from a re-analysis of the deposited data

Results flagged for a closer look

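In groups of 4 libraries, the gap of the highest or lowest library to its neighbour was compared with the range of the group by Dixon's rule at the 95% level. Of 204 sets of a member and a group, 11 passed, and chance marks about 1 in 20. Of these, 7 are the WT library with MK-8722 at passage 7, which was the lowest of its group with 68.1 CPM for *Acat2*, 8.80 CPM for *Hsd17b7*, 49.3 CPM for *Lss*, 35.1 CPM for *Mvd*, 34.4 CPM for *Pmvk*, 39.7 CPM for *Sc5d* and 638 CPM for *Scd2*. The mean over the fatty acid genes was also apart in that library, at 7.23 log2 CPM. The DKO library with torin1 at passage 11 was apart for *Insig1* (14.8 CPM), *Scd1* (168 CPM) and the mean over the sterol genes (4.49 log2 CPM). The others were *Idi1* in DKO with torin1 at passage 10 (7.80 CPM), *Pmvk* in WT with torin1 at passage 7 (24.1 CPM) and, for the sterol minus fatty acid difference, DKO with DMSO at passage 8 (0.44). Of 18 sets of a class mean and a group, 3 passed.

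*Srebf1* differed between genotypes in its response to torin1, by 0.39 on the log2 scale (edgeR's quasi-likelihood test, adjusted p = 0.00213), with the torin1 library above the DMSO library at 4 of 4 passages in DKO and at 2 of 4 in WT.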

How the results depend on the processing

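Over the members, 6051 of 6256 values under other settings and 8802 of 8976 with a library left out stayed called or stayed uncalled. Among calls, 0 changed direction, and the direction of values uncalled in both fits was not compared. The library left out could belong to a group outside the comparison. With 1 library left out, the number of members called ranged from 24 to 26 with torin1 in WT, 25 to 27 in DKO, 9 to 16 with MK-8722 in WT, 7 to 16 in DKO, 28 to 30 and 29 to 30 for torin1 against MK-8722, 20 to 26, 18 to 20 and 18 to 23 for DKO against WT with DMSO, torin1 and MK-8722, 1 to 4 for the response to torin1 (4 without the WT library with MK-8722 at passage 7, 3 without that of passage 8 or 11, the WT library of passage 7 with DMSO or that with torin1, 2 without the WT library with torin1 at passage 8 or the DKO library with MK-8722 at passage 8) and 0 to 1 for that to MK-8722. The lowest count with MK-8722 in DKO came without its passage 11 library or the DMSO library of passage 8. A test against a fold change of 1.2 called 5 members with MK-8722 in WT, 2 in DKO, 15 for DKO against WT with DMSO and 0 for the response to torin1. That response, with 1 call, had 2 with no filter, DESeq2 size factors, edgeR's likelihood ratio test, DESeq2's Wald test, the false discovery rate alone and without WT passage 11, 4 with only the groups compared and without WT passage 7, and 5 with passage as a block, and the response to MK-8722 had 1 with passage as a block and without WT passage 7. The cause was not tested. With the median over genes in place of the mean, the sterol minus fatty acid difference with torin1 was -0.15 in WT and -0.36 in DKO. Replicate numbers gave 2 calls for the response to torin1 when used as a replicate block and moved no other count by over 1.5 times, and 7 of 24 pairs of the same number had a correlation over 0.1, so the numbers do not pair the libraries. Of pairs of the same passage, 17 of 24 did. Passage 7 and 8 settings, passage 11 settings and the differences within passage were added after the data were seen. With 4 libraries a group, the median standard error over members was 0.12 to 0.13 for a drug against DMSO and 0.18 for a response, which limits the smaller changes.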

Other observations

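The transcripts of *Srebf1*, *Acaca* and *Insig2* start at different first exons, and salmon's estimates divide reads among them. In WT with DMSO, ENSMUST00000020846 held 32.3% ± 2.58 (SD, n = 4) of the TPM of *Srebf1*, and with torin1 34.8% ± 3.23. In DKO, where the total rose with torin1, its share was 33.8% ± 1.48 with DMSO and 36.3% ± 4.06 with torin1. For *Acaca*, which fell with torin1, ENSMUST00000020843 held 46.8% ± 2.04 with DMSO and 47.1% ± 4.20 with torin1 in WT. For *Insig2*, ENSMUST00000003818 held, in WT, 39.2% ± 2.63 under DMSO, 44.6% ± 6.43 under torin1 and 39.3% ± 4.10 under MK-8722. These shares moved by less than the spread between libraries or about as much, and they were not tested.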
